A study of Mus musculus with 6 samples.

Results

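AP-1 is a family of dimeric transcription factors, and 10 genes of the family and its close relatives were followed here by name: Fos, Fosb, Fosl1 and Fosl2 of the Fos family, Jun, Junb and Jund of the Jun family, and the related genes Atf3, Batf3 and Maff. All 10 were found among the 23420 genes of the count table. They were measured by mRNA sequencing in mouse epidermal keratinocytes, the cells of the outer layer of the skin, in 3 libraries labelled WT and 3 labelled iKO (induced knockout). Every culture was homozygous for a floxed Gata6 allele (Gata6 fl/fl), was grown in low-calcium E medium, was at passage 8 to 10 and was exposed to 1 µM 4-hydroxytamoxifen for 6 hours. The iKO cells carried K14CreERT2 (K14CreERT2+;Gata6 fl/fl), a Cre recombinase that is driven by the keratin 14 promoter and switched on by tamoxifen, and the WT cells did not (K14CreERT2-;Gata6 fl/fl). Whether the 3 libraries of a group stem from different cultures or mice is not stated in the labels, and p-values therefore measure only a spread between libraries that may be technical.

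AP-1 proteins carry a basic region that contacts DNA and a leucine zipper through which they pair. Jun proteins pair with each other, with Fos proteins or with ATF and BATF proteins, whereas Fos proteins need a partner of another family. The dimers bind the sequence TGACTCA, known as the TPA response element, or TGACGTCA, the cyclic AMP response element. Many of the genes are immediate early genes, transcribed within minutes of growth factor, stress or wounding signals, and in epidermis AP-1 is known for regulating both proliferation and the late stages of differentiation. Maff is a small Maf protein without a transactivation domain that pairs with other basic leucine zipper proteins. AP-1 activity also depends on protein phosphorylation and turnover, which these data do not measure.

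Promoter windows from RefSeq (build GRCm38.p6), covering 250 bases before and 50 bases after an annotated start, were matched for 9 of the 10 genes in 11 windows. Fosl1 had no entry. The windows were searched on both strands. None of the 11 held TGACTCA, which 5.20% of all 32851 mouse windows hold. TGACGTCA was found in 1 window, the middle of 3 of Maff, against 1.79% of all windows. The CArG box bound by serum response factor was in none of the 11 (1.63% of all windows), and any of the GATA forms AGATAA or AGATAG and TGATAA or TGATAG was in 3, those of Jun, Atf3 and the most upstream of Maff (29.8% of all windows). Only exact matches were counted, and sequence more than 250 bases before a start was not searched, for Fos or any other gene. A motif missing from a window may therefore lie further upstream. A pair of shorter or variant forms was added after the sequences had been seen: TGACGT, a part of TGACGTCA and so counted wherever that motif lies, was in 3 of 11 windows (7.51% of all), and TGACATCA was in 2 (3.62% of all). The 4 windows that hold most of these matches are shown, 5′ to 3′ on the strand of the gene, with matches to any searched motif in capitals.
Fos (chr12:85473640-85473939, plus strand): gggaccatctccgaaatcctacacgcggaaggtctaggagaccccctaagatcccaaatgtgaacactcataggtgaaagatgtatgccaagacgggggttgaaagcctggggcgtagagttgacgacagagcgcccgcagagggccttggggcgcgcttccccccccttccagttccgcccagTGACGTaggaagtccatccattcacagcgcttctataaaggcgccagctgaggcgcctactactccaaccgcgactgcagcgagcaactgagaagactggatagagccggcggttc
Jun (chr4:95052173-95052472, minus strand): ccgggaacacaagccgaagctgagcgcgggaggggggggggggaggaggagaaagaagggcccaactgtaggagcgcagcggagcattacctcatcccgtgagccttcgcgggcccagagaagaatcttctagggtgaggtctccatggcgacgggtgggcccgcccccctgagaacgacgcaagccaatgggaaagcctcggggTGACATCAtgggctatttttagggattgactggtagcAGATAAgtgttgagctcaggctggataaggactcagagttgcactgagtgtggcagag
Atf3 (chr1:191183284-191183583, minus strand): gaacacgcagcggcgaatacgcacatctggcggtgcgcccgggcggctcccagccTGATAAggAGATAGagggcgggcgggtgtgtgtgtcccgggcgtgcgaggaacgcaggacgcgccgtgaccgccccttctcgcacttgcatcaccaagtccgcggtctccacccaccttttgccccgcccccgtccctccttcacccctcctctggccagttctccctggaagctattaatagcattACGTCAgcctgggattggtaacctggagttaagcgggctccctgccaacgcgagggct
Maff (chr15:79347270-79347569, plus strand): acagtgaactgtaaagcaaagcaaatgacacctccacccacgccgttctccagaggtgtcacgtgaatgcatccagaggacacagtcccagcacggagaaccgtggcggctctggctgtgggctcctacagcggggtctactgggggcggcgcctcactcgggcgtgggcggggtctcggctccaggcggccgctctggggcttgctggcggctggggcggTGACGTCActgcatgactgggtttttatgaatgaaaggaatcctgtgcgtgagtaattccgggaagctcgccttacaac
In the Fos window the capitals mark TGACGT, and in the Jun window TGACATCA and then a GATA form. In the Atf3 window they mark a pair of GATA forms and ACGTCA, the reverse complement of TGACGT. In the Maff window they mark TGACGTCA. Counted from the start site as position 0, the match begins at position -66 in Fos, the TGACATCA of Jun at -45 and the match of Maff at -29. A match is a description of letters and shows no binding. The window of Jund is set on a RefSeq start 1210 bases upstream of the start in GENCODE M21, that of Fosl2 on one 671 bases downstream, that of Batf3 on one 567 bases downstream and that of Atf3 on one 34706 bases downstream of the most upstream GENCODE start, so those GENCODE starts of these genes were not searched.

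Gene counts per library ranged from 21943467 to 83337263, with the most in iKO 33 (named after the number in its column, which no title has) and the second most in WT 3 (79055307). Levels are given as CPM, counts scaled to a common library size after adjustment by the trimmed mean of M-values (TMM). Gata6, the targeted gene, did not follow the labels: it stood between 0.519 and 5.37 CPM in the libraries labelled WT and between 14.2 and 21.02 CPM in those labelled iKO, in counts of the whole gene, which do not check the floxed part alone. Directions below are therefore those of the labels. Xist was between 605 and 889 CPM in the libraries labelled WT and between 0.0824 and 2.62 CPM in those labelled iKO, and 4 Y-linked genes showed the reverse, so sex and genotype label cannot be told apart. Reads aligned at more than 1 place made up 29.5% to 30.5% of all counts in the libraries labelled WT and 21.7% to 26.5% in those labelled iKO. The 8 keratinocyte markers summed to 31723 to 44303 CPM in the libraries labelled WT and 33356 to 48810 CPM in those labelled iKO. Krt5 and Krt14 made up most of each sum, which hides the other markers. Trp63 stood at 307 to 331 CPM under the label WT and 191 to 205 CPM under iKO (log2 fold change -0.68; edgeR adjusted p = 0.0529). Krt15 (-1.28), Itga6 (-0.19) and Col17a1 (-0.13) were also lower on average, and Cdh1 (0.55) and Itgb4 (0.28) were higher. Fibroblast markers summed to at most 2.64 and 3.38 CPM in the 2 groups with Dcn and Lum at 0, melanocyte markers to at most 4.46 and 5.42 with Dct at 0, and immune markers to at most 6.17 and 3.68 with Cd207 at 0. The largest contributors to these sums were Pdgfra (up to 2.89 CPM), Tyr (up to 3.92 CPM) and Cd68 (up to 4.14 CPM). Pmel reached 1.47 CPM and Csf1r 2.01 CPM. Endothelial markers summed to 9.31 to 19.0 CPM against 7.29 to 8.94 CPM, mostly Kdr, with 1 read of Cdh5 in all libraries together.

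In these keratinocytes the AP-1 transcripts were led by the Jun family and by Fosl2, and no AP-1 gene passed the test between the groups. Per kilobase of exon, Junb was the most abundant member (59.2 ± 6.50 CPM per kilobase in the libraries labelled WT and 74.1 ± 13.3 in those labelled iKO; SD, n = 3), followed by Jund (49.9 ± 3.41 and 68.8 ± 5.13), Fosl2 (17.1 ± 1.27 and 21.1 ± 0.846) and Jun (15.0 ± 1.69 and 13.6 ± 2.29). Fos, Fosl1 and Maff followed, with mean levels between 4.44 and 8.28 CPM per kilobase in either group. Atf3 (1.62 ± 0.587 and 2.45 ± 0.990), Fosb (0.186 ± 0.0719 and 0.310 ± 0.0971) and Batf3 (0.0617 ± 0.0545 and 0.0450 ± 0.0421 CPM per kilobase) were the lowest. Fosl2 held rank 3, Jun rank 4 and Atf3, Fosb and Batf3 ranks 8, 9 and 10 in each of the 6 libraries. Junb and Jund exchanged ranks 1 and 2 in iKO 4, and the order of Fos, Fosl1 and Maff in ranks 5 to 7 varied between libraries, so the spread does not separate these neighbours. In these bulk samples, fewer cells expressing a gene and less RNA per cell cannot be told apart.

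**Figure D1:**
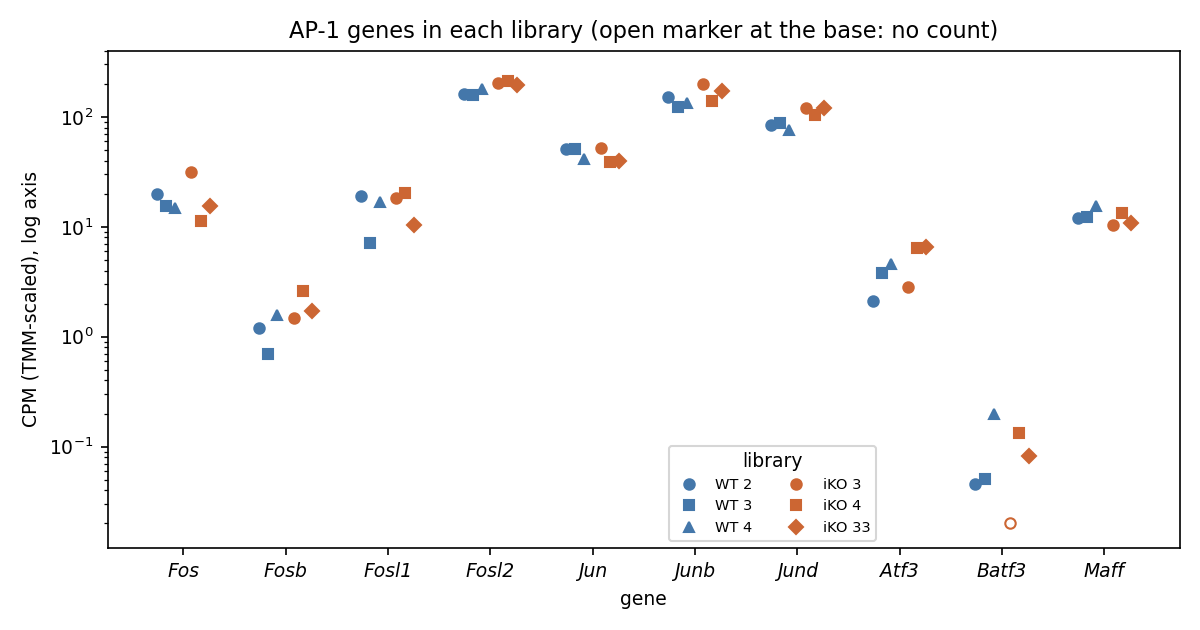
CPM (log axis) of each AP-1 gene in each of the 6 libraries, with libraries labelled WT in blue and iKO in orange and 1 marker per library. Fosl2, Junb and Jund sit highest, Batf3 lowest with no count in iKO 3 (open marker), and the orange points lie wholly above the blue ones for Fosl2 and Jund.

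Of the 10 genes, 9 passed the filter on low counts, and 0 of these 9 had an adjusted p under 0.05 in edgeR's quasi-likelihood test with Benjamini-Hochberg adjustment over all 12672 tested genes. Over all tested genes 0.339% were called. An unadjusted p under 0.05 was reached by 2 of the 9 (15.0% of all tested genes, and 7.32% on the higher side), Jund and Fosl2, both at a higher level in the libraries labelled iKO. These 2 were also the genes whose groups did not overlap, against 21.9% of all tested genes, so the share of members without overlap was near that background. DESeq2 called 1 of the 9, Jund, against 5.57% of the genes for which it gave an adjusted p (2.93% higher in iKO), and limma-voom called 0. Of the 9 fold changes 7 were positive, with a median of 0.30 on the log2 scale, beside 51.2% positive and a median of 0.01 over all tested genes.

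**Figure D2:**
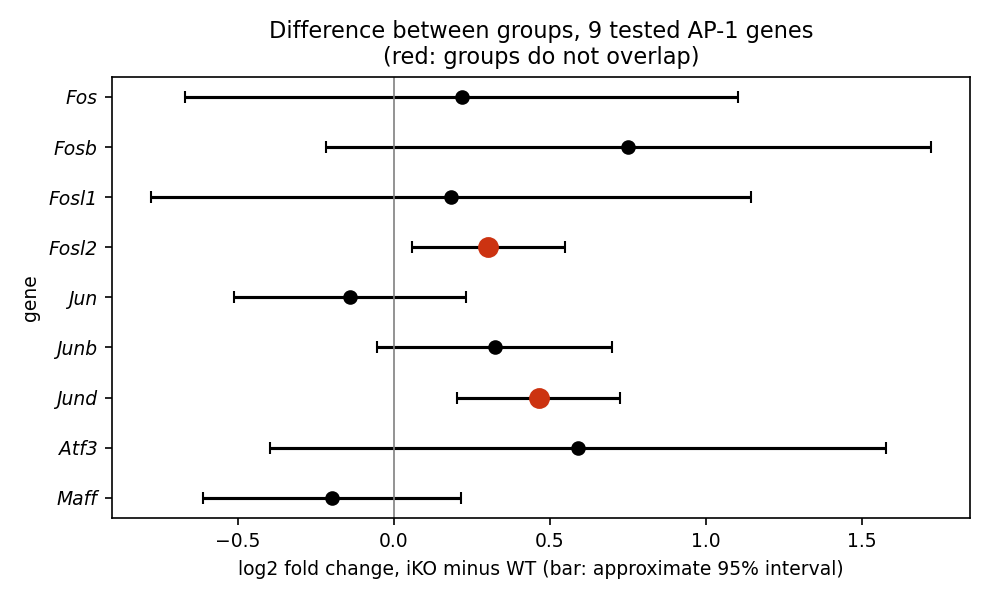
Log2 fold change of the 9 tested AP-1 genes (x axis, libraries labelled iKO minus WT) with approximate 95% intervals from the edgeR fit. Only the intervals of Jund and Fosl2, marked red because their groups did not overlap, lie wholly above 0; neither passed after adjustment.

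The Jun family supplies the partners that Fos proteins need. Jund (chromosome 8, 70698949 to 70700616, plus strand, mm10), the family member known for steady rather than induced expression, measured 85.0, 87.7 and 76.8 CPM in WT 2, WT 3 and WT 4 and 120.0, 104.9 and 119.4 CPM in iKO 3, iKO 4 and iKO 33. All libraries labelled iKO lay above all libraries labelled WT. On the log2 scale the fold change was 0.46 (SE 0.11; approximate 95% interval 0.20 to 0.73), a ratio of 1.38, and edgeR's adjusted p was 0.149. In DESeq2 the adjusted p was 0.0259, and the authors' deposited table gives Jund a log2 fold change of 0.44 (SE 0.13) with an adjusted p of 0.0209. Across the alternatives tried the log2 fold change lay between 0.40 and 0.53, and DESeq2 alone gave an adjusted p under 0.05 (range 0.0259 to 0.633). Jund shares 877 bases of exon with Gm11175, an antisense gene that is not among the genes of the count table. The kit does not mark strand, so reads of Gm11175 may be counted as Jund and cannot be told apart. Its transcript has a GC content of 67.1%, in the fifth of tested genes with the most GC, whose median log2 fold change was 0.06. The share of reads aligned at more than 1 place also moved with the groups, and its part in the difference was not tested.

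Junb (chromosome 8, 84974484 to 84978718, minus strand), an inducible Jun protein that restrains Jun and is known for its part in skin inflammation, measured 152.7, 123.4 and 132.7 CPM in WT 2, WT 3 and WT 4 and 200.9, 139.8 and 170.6 CPM in iKO 3, iKO 4 and iKO 33. The groups overlapped through iKO 4, which lay below WT 2. Junb had a log2 fold change of 0.32 (SE 0.16; edgeR adjusted p = 0.398). Exons of Junb and of Prdx2, on the other strand, overlap by 173 bases, and Prdx2 had a log2 fold change of 0.27. Jun (chromosome 4, 95049034 to 95052222, minus strand), the founding partner of Fos, measured 50.7, 51.4 and 41.7 CPM in WT 2, WT 3 and WT 4 and 51.9, 38.9 and 39.8 CPM in iKO 3, iKO 4 and iKO 33. The level in iKO 3 was the highest of all 6 libraries, and the groups overlapped. The log2 fold change was -0.14 (SE 0.16; edgeR adjusted p = 0.732; interval -0.51 to 0.23). Jun shares 232 bases of exon with Junos, an antisense gene that is also absent from the count table, so the counts of Jun carry the same uncertainty as those of Jund.

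Of the summed level per kilobase of Jun, Junb and Jund, Jun made up 11.9%, 13.2% and 11.2% in WT 2, WT 3 and WT 4 and 9.28%, 8.97% and 7.88% in iKO 3, iKO 4 and iKO 33. The groups did not overlap, at 12.1 ± 0.998% and 8.71 ± 0.731% (SD, n = 3). The ratio of Jund to Jun per kilobase was 3.21, 3.26 and 3.52 in the libraries labelled WT and 4.42, 5.16 and 5.74 in those labelled iKO, again without overlap. Both measures were chosen after the values had been seen, and both gave an exact two-sided permutation p of 0.1, the smallest that 3 against 3 libraries allow. That p cannot pass the threshold, and neither Jun nor Jund passed in edgeR. Ratios within a library do not depend on library scaling. They do depend on the gene lengths used. For Jund the exon union and the longest transcript are both 1668 bases in GENCODE, while its RefSeq start lies further upstream. A longer length of Jund, which would lower its ratio and share in every library, was not tried. The share of Jund was 38.3%, 43.0% and 39.4% in WT 2, WT 3 and WT 4 and 41.0%, 46.3% and 45.2% in iKO 3, iKO 4 and iKO 33, with overlapping groups (exact two-sided permutation p = 0.2). The share of Junb was 47.7 ± 3.33% and 47.1 ± 2.51%, with overlapping groups.

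Among the Fos family, Fosl2 (chromosome 5, 32135801 to 32157842, plus strand), which encodes Fra-2, measured 160.1, 157.5 and 179.9 CPM in WT 2, WT 3 and WT 4 and 204.9, 212.7 and 196.3 CPM in iKO 3, iKO 4 and iKO 33. All libraries labelled iKO lay above all libraries labelled WT. The log2 fold change was 0.30 (SE 0.10; interval 0.06 to 0.55), a ratio of 1.23. It did not pass in edgeR (adjusted p = 0.249), in DESeq2 (adjusted p = 0.181) or in the authors' deposited table, which gives a log2 fold change of 0.29 (SE 0.12) and an adjusted p of 0.154. Over the alternatives tried the log2 fold change lay between 0.27 and 0.36, with adjusted p-values from 0.181 to 0.664.

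Fos (chromosome 12, 85473890 to 85477273, plus strand), the prototype immediate early gene, measured 20.1, 15.4 and 14.8 CPM in WT 2, WT 3 and WT 4 and 31.7, 11.2 and 15.6 CPM in iKO 3, iKO 4 and iKO 33. The highest and the lowest of the 6 values were both in libraries labelled iKO. For Fos the log2 fold change was 0.22 (SE 0.37; edgeR adjusted p = 0.835) and became -0.32 without iKO 3. The interval of -0.67 to 1.10 covers ratios from 0.630 to 2.15. Fosl1 (chromosome 19, 5447547 to 5455946, plus strand), which encodes Fra-1 and is itself a known AP-1 target, measured 19.2, 7.13 and 16.9 CPM in WT 2, WT 3 and WT 4 and 18.1, 20.4 and 10.3 CPM in iKO 3, iKO 4 and iKO 33. Its lowest value in each group was in the deepest library of that group, WT 3 and iKO 33, and the part of depth was not tested. The log2 fold change was 0.18 (SE 0.41; edgeR adjusted p = 0.877), -0.15 without WT 3 and -0.013 without iKO 4. Fosl1 and Ccdc85b overlap by 1163 exon bases on opposite strands, so their counts are uncertain. Fosb (chromosome 7, 19302696 to 19310051, minus strand), an immediate early gene with a long and a truncated protein form, had 26, 55 and 56 reads in WT 2, WT 3 and WT 4 and 46, 118 and 146 in iKO 3, iKO 4 and iKO 33. These are 1.20, 0.696, 1.59, 1.47, 2.62 and 1.72 CPM, and the groups overlapped through iKO 3. Its log2 fold change was the highest of the 9 tested genes, at 0.75 (SE 0.41; edgeR adjusted p = 0.443; interval -0.22 to 1.72).

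Set against the Jun family, the Fos family made up a minor part of the AP-1 transcripts. Its share of the level per kilobase of both families was 20.7%, 17.8% and 22.2% in WT 2, WT 3 and WT 4 and 20.0%, 21.5% and 16.9% in iKO 3, iKO 4 and iKO 33. The groups overlapped, at 20.2 ± 2.27% and 19.5 ± 2.32% (SD, n = 3; exact two-sided permutation p = 0.7). Fosl2 made up 55.0 ± 7.0% of the Fos family level per kilobase in the libraries labelled WT and 56.8 ± 7.54% in those labelled iKO. Fos made up 22.7 ± 3.40% and 21.4 ± 9.01%, and Fosl1 21.8 ± 7.44% and 21.04 ± 5.63%. Summed over all 10 genes, the level was 173.5, 155.3 and 158.4 CPM per kilobase in WT 2, WT 3 and WT 4 and 224.7, 181.2 and 197.7 in iKO 3, iKO 4 and iKO 33. The groups did not overlap (162 ± 9.76 and 201 ± 22.0 CPM per kilobase; exact two-sided permutation p = 0.1, the smallest possible). Junb and Jund carry most of that sum.

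**Figure D3:**
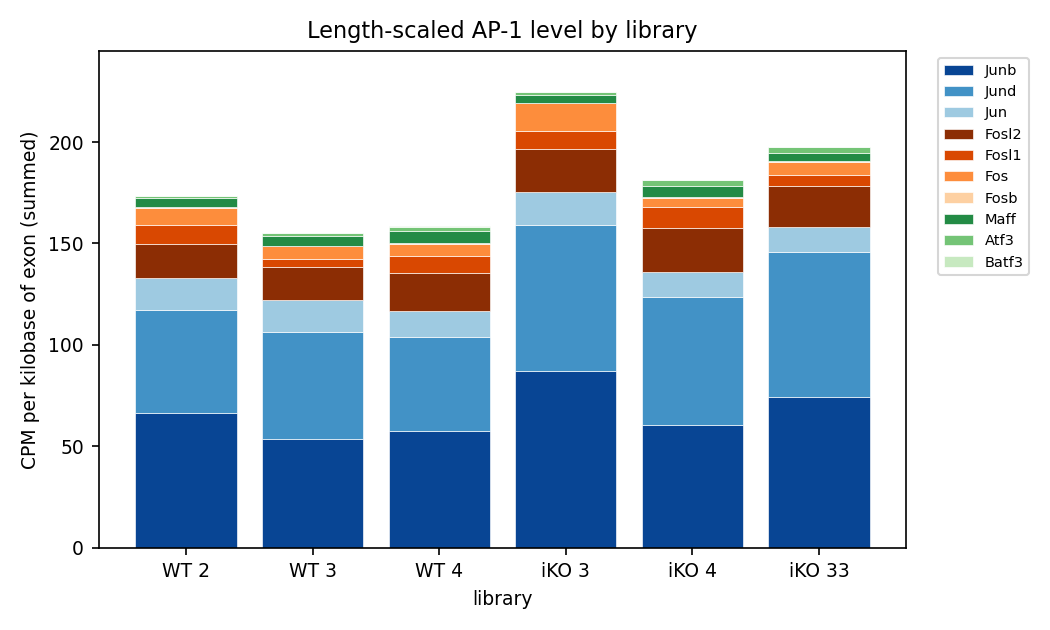
Summed AP-1 level in each library (y axis, CPM per kilobase of exon), stacked by gene with the Jun family in blue, the Fos family in orange and brown and the other genes in green. The stacks of the libraries labelled iKO reach 181.2 to 224.7 and those of the libraries labelled WT 155.3 to 173.5, and Junb and Jund form most of each stack.

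Of the genes outside both families, Atf3 and Batf3 were low, and Maff stood near Fos and Fosl1. Atf3 (chromosome 1, 191170296 to 191218039, minus strand), a stress-induced factor that pairs with Jun proteins, measured 2.12, 3.76 and 4.61 CPM in WT 2, WT 3 and WT 4 and 2.81, 6.42 and 6.59 CPM in iKO 3, iKO 4 and iKO 33. The groups overlapped through iKO 3. Atf3 had a log2 fold change of 0.59 (SE 0.42; edgeR adjusted p = 0.563), with an interval of -0.39 to 1.58. Without 1 library it lay between 0.34 (without WT 2) and 0.89 (without iKO 3), and with only the 4 libraries numbered 3 and 4 it was 0.15, or 0.038 with the number as a block. Maff (chromosome 15, 79346621 to 79359076, plus strand) measured 11.9, 12.3 and 15.4 CPM in WT 2, WT 3 and WT 4 and 10.4, 13.2 and 10.9 CPM in iKO 3, iKO 4 and iKO 33, with overlapping groups and a log2 fold change of -0.20 (SE 0.18; edgeR adjusted p = 0.652). Batf3 (chromosome 1, 191097847 to 191108945, plus strand), best known as a factor that dendritic cells need for their development, had 1, 4 and 7 reads in WT 2, WT 3 and WT 4 and 0, 6 and 7 reads in iKO 3, iKO 4 and iKO 33. It did not pass the filter and was not tested. The count of 0 in iKO 3 allows a level of up to 0.0959 CPM, which covers counting error only.

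The 9 tested genes differed in how much they varied between libraries of a group. The biological coefficient of variation, edgeR's estimate of spread beyond counting error, was 0.124 for Fosl2, 0.129 for Jund, 0.161 for Junb and 0.164 for Jun, below the median of 0.199 over all tested genes. It was 0.203 for Maff, 0.338 for Fos, 0.364 for Fosl1, 0.380 for Fosb and 0.388 for Atf3. The spread was thus widest for Fos, Fosl1, Fosb and Atf3. Their fold changes also have the widest intervals, which come from the same fit and are no separate observation.

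Fos, Fosl1 and Atf3 followed different library patterns. Likeness was measured as the mean absolute difference of log2 CPM, each gene centred on its mean, over the same 6 libraries, so that the depth and culture of a library enter the values of every gene. Fos was high in iKO 3 and low in iKO 4, and the most alike genes were Cryaa (0.0813), Cbln3 (0.0913) and the zinc finger gene Zfp672 (0.10), where the median over all tested genes was 0.433. Fosl1 was low in WT 3 and iKO 33, with Nnat (0.115), the sphingolipid desaturase gene Degs2 (0.126) and Tmem88b (0.135) nearest and a median of 0.527. Atf3 was lowest in WT 2 and iKO 3 and highest in iKO 4 and iKO 33. Nearest to it was Nfkbiz (0.132), which encodes a nuclear IκB protein that modulates NF-κB target genes, and then Ap1s2 (0.174) and Apbb1 (0.176), against a median of 0.554. Nfkbiz measured 45.1, 60.5 and 104.8 CPM in WT 2, WT 3 and WT 4 and 65.0, 150.8 and 138.3 CPM in iKO 3, iKO 4 and iKO 33. These genes are the nearest of 12672, and Cryaa, Cbln3, Nnat, Tmem88b and Apbb1 lie below 3 CPM in every library.

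**Figure D4:**
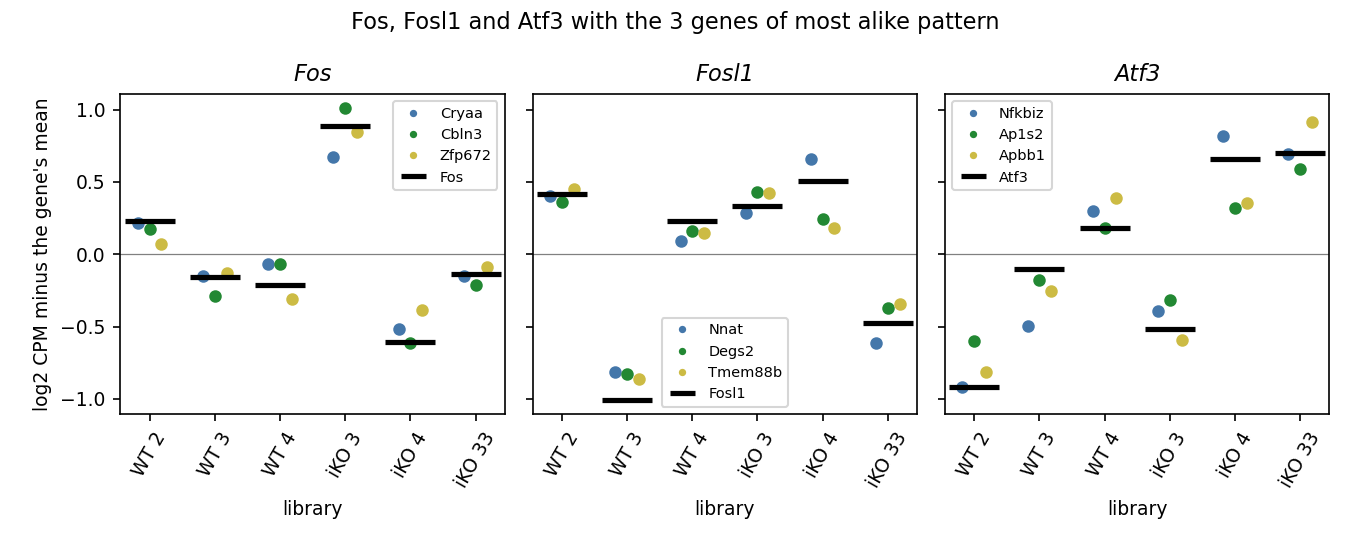
Log2 CPM minus the gene's mean over the 6 libraries (y axis) for Fos, Fosl1 and Atf3 (black bars) and the 3 genes with the most alike pattern (coloured points), by library. Fos stands out in iKO 3, Fosl1 is lowest in WT 3 and iKO 33, and Atf3 is lowest in WT 2 and iKO 3.

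Other parts of the AP-1 system are given by their counts in the same edgeR fit, to be read beside the shares over all tested genes: 0.339% called in edgeR, 15.0% with an unadjusted p under 0.05 (7.32% on the higher side) and 5.57% called in DESeq2. The lists were chosen with earlier results of these data known, so the counts are a description only. Of 28 listed basic leucine zipper relatives and partners 23 were tested, of which 8 had positive and 15 negative fold changes (median -0.04), 0 passed in edgeR, 3 reached an unadjusted p under 0.05, and DESeq2 called 1. That 1 was Nfil3, a repressor of the same structural class, at 30.2, 27.0 and 22.7 CPM in WT 2, WT 3 and WT 4 and 19.5, 15.6 and 15.7 CPM in iKO 3, iKO 4 and iKO 33 (log2 fold change -0.65, SE 0.16; edgeR adjusted p = 0.158). Atf5 (-0.56, SE 0.18) and Atf4 (-0.31, SE 0.13), both factors of the integrated stress response, had the next smallest p. Of 35 listed genes of the MAPK cascade and of factors acting on AP-1 promoters 33 were tested, of which 17 were positive and 16 negative (median 0.01), 0 passed in edgeR, 5 reached an unadjusted p under 0.05, and 1 was called in DESeq2. That gene, Mapk12, which encodes p38 gamma, measured 1.34, 2.23 and 2.64 CPM in the libraries labelled WT and 3.39, 5.78 and 4.46 CPM in those labelled iKO (1.12, SE 0.34; edgeR adjusted p = 0.207). The kinase gene Map3k1, upstream of JNK, stood at -0.39 (SE 0.13), Mapk14, the main p38 kinase gene, at -0.25 (SE 0.10), and Elk3, a ternary complex factor, at 0.52 (SE 0.19). Of 12 genes of AP-1 protein turnover and cofactors, 10 were negative (median -0.13), 0 passed in edgeR or DESeq2 and 1 had an unadjusted p under 0.05: Det1, a part of the ubiquitin ligase that degrades Jun, at -0.32 (SE 0.12). Gsk3b (-0.22, SE 0.12), Rfwd2 (-0.21, SE 0.14), the Det1 partner also known as Cop1, and Cops5 (-0.19, SE 0.14), known as a Jun coactivator, did not pass.

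Of 38 listed keratinocyte genes known as AP-1 targets 30 were tested, of which 17 were positive and 13 negative (median 0.15). In edgeR 0 of them passed, 7 reached an unadjusted p under 0.05 (6 higher, 1 lower), and 3 were called in DESeq2, all higher: Tgm1, Hbegf and Sprr2d. Over all genes the shares were 15.0% at an unadjusted p under 0.05 (7.32% higher) and 5.57% in DESeq2 (2.93% higher). Hbegf, an EGF receptor ligand, measured 52.5, 38.7 and 54.0 CPM in WT 2, WT 3 and WT 4 and 91.3, 76.8 and 79.9 CPM in iKO 3, iKO 4 and iKO 33 (0.77, SE 0.16; edgeR adjusted p = 0.109). The cornified envelope genes Tgm1 and Sprr2d had edgeR adjusted p-values of 0.0690 and 0.194. Involucrin (Ivl), the best studied AP-1 target of suprabasal keratinocytes, measured 52.3, 64.5 and 35.3 CPM in the libraries labelled WT and 110.9, 56.4 and 145.8 CPM in those labelled iKO, with overlap through iKO 4 (1.04, SE 0.37; edgeR adjusted p = 0.260). Of 26 listed other immediate early genes 22 were tested, of which 15 were positive and 7 negative (median 0.18). In edgeR 1 passed, Ier3, an apoptosis modulator (1.02, SE 0.12; adjusted p = 0.0278), and DESeq2 called 5, Ier3, Gadd45b, Cyr61 and Dusp5 higher and Myc lower, beside 0.339% of all genes in edgeR and 5.57% in DESeq2. Gadd45b, a stress sensor gene, measured 66.1, 53.4 and 72.9 CPM in the libraries labelled WT and 129.2, 159.6 and 97.9 CPM in those labelled iKO (1.01, SE 0.20; edgeR adjusted p = 0.108). Myc stood at -0.57 (SE 0.12) and Cyr61 at 0.87 (SE 0.22), with edgeR adjusted p-values of 0.121 and 0.163. Overlap between groups was absent for 4 of the 23 relatives, 8 of the 33 pathway genes, 1 of the 12 turnover genes, 7 of the 30 targets and 9 of the 22 immediate early genes, beside 21.9% of all tested genes. As targets and immediate early genes were listed with earlier results of these data known, a count above its share is no independent result.

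**Figure D5:**
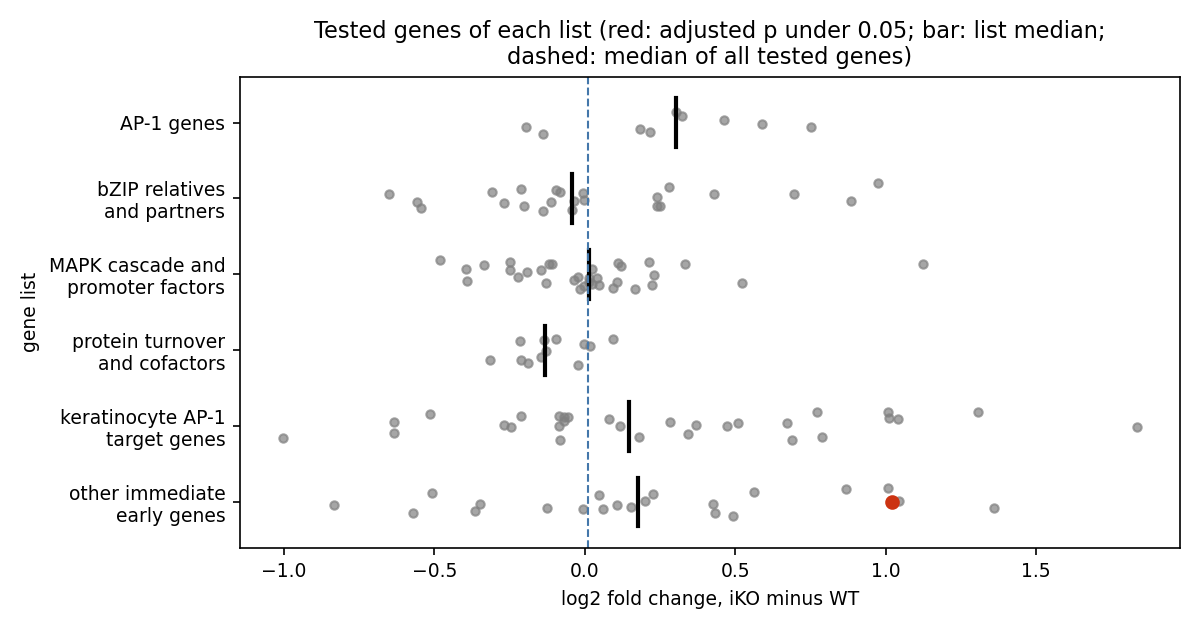
Log2 fold change (x axis, libraries labelled iKO minus WT) of every tested gene in each list, 1 point per gene, with the list's median as a black bar. The medians lie between -0.13 (protein turnover and cofactors) and 0.30 (AP-1 genes), and Ier3 is the 1 gene of these lists with an edgeR adjusted p under 0.05.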

How the data were processed

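Read counts per gene symbol were deposited for 6 libraries; the authors' files were made with TopHat2, HTSeq, DESeq2 and DESeq on build mm10, per the submitters' processing notes. The 5 HTSeq summary rows, 27.4% to 35.5% of all counts, were left out. Their annotation, strand setting and versions were not given in the sources used here. Per the file headers, the authors' deposited table holds log2 fold changes with SE, a Wald score, p-values and a mean signal scaled by library. A column numbered 33, which matches no title, was used as an iKO replicate. The titled sample iKO 2 has no column with its number. Whether the column numbered 33 is that sample is not stated, so the iKO libraries may not be the titled iKO samples.

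Genes were filtered with filterByExpr (minimum count 10), scaled by TMM and compared on all genes with glmQLFit and glmQLFTest in edgeR 4.0.16 (R 4.3.3), robust, two-sided, with group as the only term and Benjamini-Hochberg adjustment at 0.05. Fold changes are iKO minus WT. The SE is the absolute log2 fold change over the square root of F, and intervals (95%) use the fit's degrees of freedom. Log2 CPM values use a prior count of 2, and a count of 0 a floor of 3 counts. Levels per kilobase use exon-union lengths of GENCODE M21 (mm10). Library sums and shares were compared by exact permutation. In a test on simulated data, changed genes were drawn only from those with a mean above 5 CPM. There edgeR found 62 of 100 genes with a fold of 2 and 93 of 100 with a fold of 4, and 13 of its calls among 12517 genes were false. Fosb and Atf3 lie below that mean, and the estimated ratios of all tested members lie below 2. The test therefore does not give the power for these members. DESeq2 1.42.0 found 83 and 98, with 65 false calls beside these among 12669 genes. As a share of all calls, false calls exceeded 0.05 in both tools. The excess was larger in DESeq2. The counts were simulated with edgeR's own estimates of spread and only 100 changed genes of each fold. These shares therefore need not hold for calls in the real data, including that of Jund by DESeq2. Alternatives included DESeq2, limma 3.58.1 (voom), other scalings and filters, a block on replicate number and leaving out each library. Members and lists were chosen with earlier results of these data known. Named genes are all members, up to 4 of each list with the smallest p, every called gene of a list with 5 or fewer calls, and the 3 genes nearest to Fos, Fosl1 and Atf3. The genes Ccdc85b, Prdx2, Gm11175 and Junos were named as overlapping neighbours, and Ptgs2, Krt1, Lor, Sprr1a and Sprr1b as further targets, outside that rule. Of the genes named by this rule, 1 is not reported here.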

Additional observations from a re-analysis of the deposited data

How the results depend on the processing

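The number of AP-1 genes called was 0 under each alternative except DESeq2, which called 1 (Jund). That includes other scalings, other filters, limma-voom, no robust estimation, a threshold of 0.1, the block and leaving out each library. The number of all genes called, 43, moved more: 76 with no filter, 757 in DESeq2, 152 at an adjusted p of 0.1 and 7 to 31 without 1 library. A block on the numbers shared by WT 3, WT 4, iKO 3 and iKO 4 gave 103 calls, and the same 4 libraries without the block, added after seeing the data, gave 4. Deviations of same-numbered libraries from their group means correlated at 0.297 for number 3 and 0.661 for number 4. The differently numbered WT 2 and iKO 3 correlated at 0.3255, so these values do not single out number 3 as a pair. No label says that the numbers pair samples. Without 1 library the fold change of Fos ranged from -0.32 (without iKO 3) to 0.50 and that of Fosl1 from -0.15 (without WT 3) to 0.44, with -0.013 without iKO 4. The ranges were 0.47 to 1.06 for Fosb, -0.28 to -0.064 for Jun, 0.19 to 0.45 for Junb, 0.34 to 0.89 for Atf3 and -0.31 to -0.083 for Maff, all moves by over 1.5 times, and narrower for Jund (0.40 to 0.53) and Fosl2 (0.27 to 0.36). Under the block Fosl1 stood at 0.81 and Atf3 at 0.038. The difference in the Fos-family share, -0.755 percentage points, reversed to 0.254 without WT 4 and 0.508 without iKO 33 and was -0.686 with longest-transcript lengths; the cause was not tested. Without 1 library it ranged from -1.99 to 0.508, the difference in the summed level from 27.0 to 48.8 CPM per kilobase, the difference in the share of Jun from -3.84 to -2.86 percentage points and that in the ratio of Jund to Jun from 1.46 to 2.12. Scaling moved the median of all genes by less than 0.1 on the log2 scale. Only 25 reads of Batf3 and 447 of Fosb limit what can be seen of these genes.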

Other observations

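Genes whose RefSeq promoter window holds an AP-1 motif were looked at as a group after the other values were known, and the counts are a description with no test. Of 454 tested genes with TGACTCA in a window, 248 had positive and 206 negative fold changes (54.6% positive, median 0.03). Over all 9366 tested genes with a window, 50.8% were positive and the median was 0.01. In edgeR 2 of the 454 passed: Htatip2, an oxidoreductase gene, was higher (3.24, SE 0.41) and Prl8a9, a prolactin family gene, was lower (-3.56, SE 0.43). These are 0.441% of the 454, beside 0.363% of the genes with a window. Of 347 genes with TGACGTCA, 178 were positive (median 0.01) and Kif5c, a kinesin heavy chain gene, passed, with 1.92 ± 0.172 CPM under the label WT and 8.74 ± 2.57 CPM under iKO (SD, n = 3 each; edgeR adjusted p = 0.0361). Of 147 genes with a CArG box, 89 were positive (60.5%, median 0.04) and 0 passed in edgeR. The share of positive fold changes was 51.2% of 2037 genes with a GATA form, 50.5% of 1250 with TGACGT and 51.2% of 209 with TGACATCA. At an unadjusted p under 0.05 stood 65 genes with TGACTCA (14.3%), 38 with TGACGTCA (11.0%), 149 with TGACGT (11.9%), 29 with TGACATCA (13.9%), 23 with a CArG box (15.6%) and 334 with a GATA form (16.4%), beside 14.7% of the genes with a window. DESeq2 called 35 (7.71%), 11 (3.17%), 49 (3.92%), 11 (5.26%), 12 (8.16%) and 118 (5.80%) of them in the same order, beside 5.50% of the genes with a window.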
